A study of Mus musculus with 40 samples.

Results

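The mRNAs of 8 G protein-coupled receptors of activated microglia were followed among the 43346 genes counted in mouse cortex. The members were the table entries named *Hcar2*, *Gpr84*, *Fpr1*, *Fpr2*, *P2ry6*, *Ptafr*, *Cysltr1* and *Adora3*, chosen by name. These names matched 9 entries, because a second gene model, that of *Tmigd3*, also carried the name *Adora3*, and it is described apart. The study asked how a histidine to tyrosine change at residue 157 of TREM2 alters the cortex with and without amyloid. RNA came from the cortex of 40 mice in 4 groups of 10, each of 5 females and 5 males. The non-amyloid WT group held mice with unedited *Trem2* at 6 months of age, and the non-amyloid Hom group held mice of that age homozygous for the *Trem2* H157Y knock-in. The amyloid WT and amyloid Hom groups held mice of the same 2 *Trem2* genotypes at 8.5 months, and all 20 of them also carried the 5xFAD transgenes, driven in neurons by the *Thy1* promoter. The 2 cohorts thus differ in transgenes and in age at once, and these cannot be told apart. In what follows, with amyloid stands for the amyloid cohort. The knock-in mice descended from 1 founder by the study's methods unless it stated otherwise, so other changes carried by that founder cannot be told apart from H157Y.

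Microglia sense their surroundings through receptors with 7 transmembrane segments that hand the signal to heterotrimeric G proteins inside the cell, and from there to calcium, cyclic AMP and phosphoinositide signalling. HCAR2 binds the ketone body beta-hydroxybutyrate and niacin, and GPR84 binds medium-chain fatty acids, so both read metabolites. P2RY6 binds UDP released by damaged cells and is known for starting microglial phagocytosis, while ADORA3 binds adenosine. PTAFR binds platelet-activating factor and CYSLTR1 binds the cysteinyl leukotrienes, which are lipid mediators made from membrane phospholipids. FPR1 and FPR2 bind formylated peptides of bacteria and mitochondria and are best known from neutrophils. Microglia around amyloid plaques are known to raise several of these receptors as they leave the resting state.

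Total counts per library ran from 41646271 to 105903846. Amyloid Hom replicate 19 had the lowest total, and 0.617% of its counts lay on 569 genes whose exons mostly fall on those of a more abundant opposite-strand gene, against 0.0144% to 0.0191% in the other 39 libraries. Summed CPM (counts scaled to library size after TMM adjustment) ran from 6143 to 7957 for 5 neuronal markers and from 398 to 2225 for 12 microglial markers, all 12 of which were detected in every library. The 9 neutrophil markers summed to 0.113 to 2.71 CPM in 39 libraries and to 23 CPM in non-amyloid WT replicate 24, and 6 mast cell markers summed to at most 0.493 CPM. *Trem2* mRNA averaged 10.7 ± 2.13 CPM (SD, n = 10) in non-amyloid WT, 10.4 ± 1.59 in non-amyloid Hom, 62.2 ± 24.4 in amyloid WT and 33.9 ± 10.3 in amyloid Hom mice. Counts per gene do not read the edited base, so they are no check of the genotype.

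The member genes lie on 7 chromosomes of mm10. *Hcar2* (ENSMUSG00000045502) is at chr5:123863570-123865516 on the minus strand and has 1 exon in GENCODE vM21. *Gpr84* (ENSMUSG00000063234) is at chr15:103308236-103310438 on the minus strand, and 39.5% of its exonic bases lie on exons of *Gm49482*, an antisense transcript. *P2ry6* (ENSMUSG00000048779) is at chr7:100937638-100964391 on the minus strand, and *Cysltr1* (ENSMUSG00000052821) is at chrX:106574346-106603679 on the minus strand. *Ptafr* (ENSMUSG00000056529) is at chr4:132564067-132582683 on the plus strand. *Adora3* (ENSMUSG00000000562) is at chr3:105870858-105908928 on the plus strand, and 20.9% of its exonic bases are shared with *Tmigd3* on the same strand. *Fpr1* (ENSMUSG00000045551) at chr17:17876471-17883940 on the minus strand and *Fpr2* (ENSMUSG00000052270) at chr17:17887824-17893952 on the plus strand are neighbours. Of the 100-base windows of *Fpr2* transcripts, 12.3% also occur in transcripts of *Gm5966*. The counting setting for strand was not stated, and *Gm49482* was not among the genes counted. Whether the *Gpr84* counts hold reads of this antisense partner is therefore not known. Whatever that setting was, reads from sequence that *Adora3* shares with *Tmigd3*, or *Fpr2* with *Gm5966*, could not be told apart by their letters.

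Promoter sequence was at hand in RefSeq (GRCm38.p6) for 5 of the 8 members, *Adora3*, *Ptafr*, *Gpr84*, *Fpr1* and *Fpr2*. The 250 bases before the start are shown for *Adora3* and *Ptafr*, which rose with amyloid, and for *Fpr2*, which did not pass the test. Capitals mark matches on either strand to letters bound by factors of myeloid cells. These were PU.1 (GAGGAAGT) and its core (GAGGAA, which lies within it), AP-1 (TGANTCA), the interferon response element (GAAANNGAA), C/EBP (TTGCNNAA) and NF-kB (GGGANTTTC).
*Adora3*, chr3:105904171-105904420, plus strand: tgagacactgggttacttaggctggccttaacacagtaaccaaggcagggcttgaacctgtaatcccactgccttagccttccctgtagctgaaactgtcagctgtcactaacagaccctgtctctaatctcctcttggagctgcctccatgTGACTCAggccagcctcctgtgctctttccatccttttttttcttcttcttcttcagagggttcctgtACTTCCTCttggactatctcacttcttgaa
*Ptafr*, chr4:132563817-132564066, plus strand: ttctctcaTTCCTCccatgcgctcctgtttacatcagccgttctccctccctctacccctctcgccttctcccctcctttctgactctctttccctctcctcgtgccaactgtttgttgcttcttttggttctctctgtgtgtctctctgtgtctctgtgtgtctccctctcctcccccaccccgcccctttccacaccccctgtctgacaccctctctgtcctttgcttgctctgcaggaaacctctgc
*Fpr2*, chr17:17887574-17887823, plus strand: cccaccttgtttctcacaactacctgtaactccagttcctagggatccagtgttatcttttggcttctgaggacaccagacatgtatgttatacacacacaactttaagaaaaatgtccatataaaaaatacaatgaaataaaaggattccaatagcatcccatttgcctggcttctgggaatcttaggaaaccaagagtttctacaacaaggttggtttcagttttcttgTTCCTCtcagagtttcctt

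The *Adora3* window held a PU.1 match on the minus strand at position -30 from the RefSeq start and an AP-1 match at -98. That start lies inside the span of the gene model given above and not at its beginning, where no letters were sought. The *Ptafr* and *Fpr2* windows held the PU.1 core alone, at -242 and -19. *Gpr84* held 2 NF-kB matches, at -134 and -37 from the RefSeq start, both inside the longer first exon that GENCODE gives, and each is shown with 10 bases on either side.
*Gpr84*, chr15:103310554-103310582, minus strand: taagttgcagGGGAATTTCaacagagaag
*Gpr84*, chr15:103310457-103310485, minus strand: tgggtaacttGGGAGTTTCttatttctgt

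*Fpr1* held none of these matches, which says only that these letters are not in its window. The letters were sought from 250 bases before to 50 after each start, and every match in the members lay before it. Of 32851 RefSeq promoter windows of these 300 bases, 3.20% held the PU.1 letters, 28.3% the PU.1 core, 7.81% the AP-1, 8.56% the interferon response, 10.8% the C/EBP and 1.11% the NF-kB letters. A match is a description of the letters and shows no binding.

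Between cohorts, 6 of the 7 receptors that passed the filter on low counts rose with amyloid, in WT and in Hom mice alike by count. *Fpr1* did not pass the filter, which asked for 10 counts in at least 4 libraries. A gene was called when its adjusted p in edgeR's quasi-likelihood test was under 0.05 and its absolute log2 fold change over 0.25. By that rule 6.62% of all 21253 genes tested were called higher in amyloid WT than in non-amyloid WT mice, and 5.71% in the Hom comparison. The 6 were *Hcar2*, *Gpr84*, *P2ry6*, *Adora3*, *Ptafr* and *Cysltr1*. In 4 of them every amyloid WT mouse lay above every non-amyloid WT mouse, as did 1.95% of all genes, and in 2 of them the Hom groups did not overlap, as did 0.875% of all genes. In bulk tissue a larger number of microglia and more mRNA per microglial cell cannot be told apart, and the 12 microglial markers rose too, 12 of 12 called higher in WT and 11 of 12 in Hom mice, with median log2 fold changes of 1.90 and 1.06.

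**Figure D1:**
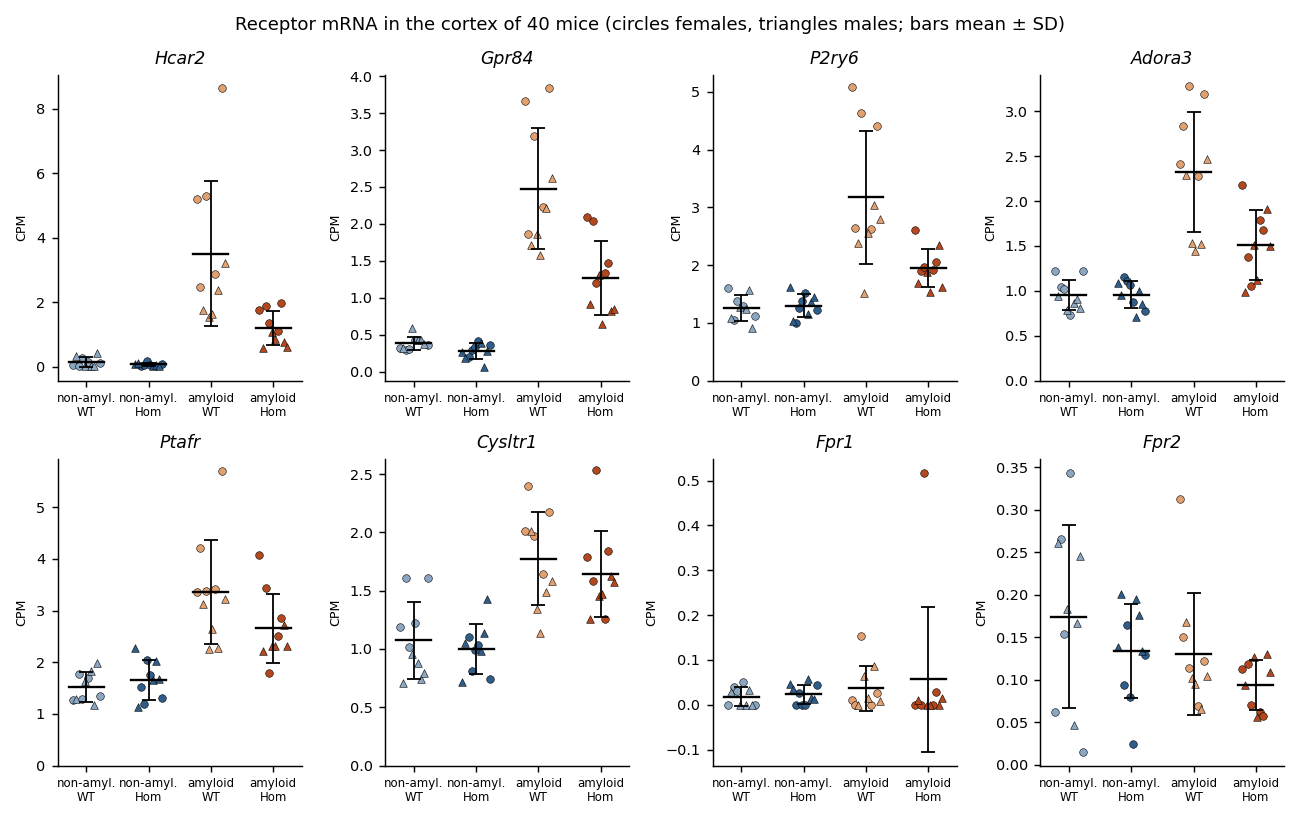
CPM of the 8 receptors in each of the 40 mice (y axis, linear) by cohort and genotype (x axis), circles for females, triangles for males, and bars for the mean ± SD of 10 mice. *Hcar2* and *Gpr84* lie near the bottom in both non-amyloid groups and are spread widely in amyloid WT mice, *Fpr2* shows no such rise, and amyloid Hom replicate 19 stands alone for *Fpr1*.

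The metabolite receptors moved furthest. *Hcar2* ranged from 0.0223 to 0.423 CPM with a median of 0.0916 in non-amyloid WT mice, and from 1.56 to 8.63 CPM with a median of 2.68 in amyloid WT mice. In Hom mice it ranged from 0.0243 to 0.176 CPM (median 0.0680) without amyloid and from 0.575 to 1.98 CPM (median 1.1) with it. Every amyloid mouse thus lay above every non-amyloid mouse of its genotype, on 2 to 31 counts per library in the non-amyloid WT mice and 104 to 635 in the amyloid WT mice. The log2 fold change was 4.54 ± 0.42 (SE, 23.2-fold, adjusted p = 2.6e-11) in WT and 3.93 ± 0.43 (15.2-fold, adjusted p = 1.3e-08) in Hom mice.

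*Gpr84* was already measurable without amyloid, at 0.293 to 0.591 CPM (median 0.362) in WT and 0.0641 to 0.420 CPM (median 0.285) in Hom mice. With amyloid it ranged from 1.58 to 3.83 CPM (median 2.22) in WT and from 0.638 to 2.1 CPM (median 1.25) in Hom mice. Neither pair of groups overlapped. The log2 fold change was 2.69 ± 0.23 in WT (6.44-fold, adjusted p = 4.1e-12) and 2.17 ± 0.23 in Hom mice (4.49-fold, adjusted p = 5.7e-09).

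The nucleotide and nucleoside receptors rose by less. *P2ry6* went from 0.915 to 1.60 CPM (median 1.26) in non-amyloid WT mice to 1.52 to 5.09 CPM (median 2.72) in amyloid WT mice, with 9 of 10 amyloid mice above all the others. In Hom mice it went from 1.01 to 1.62 CPM (median 1.31) to 1.53 to 2.61 CPM (median 1.90). The log2 fold change was 1.33 ± 0.15 in WT (adjusted p = 5.4e-09) and 0.58 ± 0.15 in Hom mice (adjusted p = 0.00978), a rise of 2.52-fold beside 1.5-fold. *Adora3* ranged from 0.737 to 1.23 CPM (median 0.927) in non-amyloid WT and from 1.44 to 3.28 CPM (median 2.35) in amyloid WT mice, with no overlap. In Hom mice its range was 0.711 to 1.15 CPM (median 0.976) without amyloid and 0.983 to 2.18 CPM (median 1.5) with it, and 7 of 10 amyloid mice lay above all non-amyloid mice. Its log2 fold change was 1.28 ± 0.15 in WT (adjusted p = 1.7e-08) and 0.66 ± 0.15 in Hom mice (adjusted p = 0.00344). ADORA3 is also a receptor of mast cells, whose 6 markers summed to at most 0.493 CPM in any library. That sum was in amyloid Hom replicate 3, and the next highest, 0.330 CPM, in amyloid WT replicate 12. These mice also had the highest *Adora3* of their groups, 2.18 and 3.28 CPM. The part of mast cell RNA in *Adora3* was not tested.

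Of the lipid mediator receptors, *Ptafr* ranged from 1.17 to 1.99 CPM (median 1.49) in non-amyloid WT and from 2.25 to 5.70 CPM (median 3.29) in amyloid WT mice, with no overlap. In Hom mice it ranged from 1.14 to 2.27 CPM (median 1.67) and, with amyloid, from 1.78 to 4.07 CPM (median 2.41). Its log2 fold change was 1.14 ± 0.15 in WT (adjusted p = 3.1e-07) and 0.68 ± 0.15 in Hom mice (adjusted p = 0.00254). *Cysltr1* showed the smallest rise of the 6 in WT mice. It ranged from 0.710 to 1.61 CPM (median 0.987) in non-amyloid WT and from 1.14 to 2.39 CPM (median 1.81) in amyloid WT mice, and the groups overlapped. In Hom mice the ranges were 0.715 to 1.43 CPM (median 1.01) and 1.26 to 2.53 CPM (median 1.58). Its log2 fold change was 0.73 ± 0.16 in WT (adjusted p = 8.3e-04) and 0.71 ± 0.16 in Hom mice (adjusted p = 0.00217), 1.65-fold and 1.63-fold.

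The formyl peptide receptors were near the limit of detection in all groups. *Fpr2* ranged from 1 to 27 counts (median 15) in non-amyloid WT, 2 to 20 (median 11.5) in non-amyloid Hom, 5 to 29 (median 9) in amyloid WT and 3 to 10 (median 7.5) in amyloid Hom mice, and all 4 groups overlapped. Its log2 fold change was -0.41 ± 0.34 in WT (adjusted p = 0.553) and -0.50 ± 0.35 in Hom mice (adjusted p = 0.394). The library with the highest *Fpr2* level, 27 counts or 0.343 CPM, was non-amyloid WT replicate 24, which also held the 23 CPM of neutrophil markers, and without it the WT value was -0.25 ± 0.34 (adjusted p = 0.767). Leaving out the highest library moves this value whatever the source of its counts, so the part of neutrophil RNA in *Fpr2* was not tested. Amyloid WT replicate 13, second in neutrophil markers at 2.71 CPM, had 0.102 CPM of *Fpr2*. Non-amyloid WT replicate 15 had 0.266 CPM of *Fpr2* with 0.306 CPM of neutrophil markers.

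*Fpr1* had 0 counts in 5 non-amyloid WT, 3 non-amyloid Hom, 3 amyloid WT and 6 amyloid Hom mice. Its counts summed to 15 over the 10 non-amyloid WT, 21 over the non-amyloid Hom, 30 over the amyloid WT and 26 over the amyloid Hom mice. Of those 26 counts, 22 came from amyloid Hom replicate 19, the library whose reads stand apart, and its neutrophil markers were at 0.188 CPM. Mean CPM was 0.0184 ± 0.0203 and 0.0367 ± 0.0502 in non-amyloid and amyloid WT mice (SD, n = 10, 2-sided permutation test with 100000 resamples, unadjusted p = 0.329). Between the Hom groups the same test gave p = 0.981, and without replicate 19 the difference turned from 0.0335 to -0.0175 CPM (p = 0.0401).

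The second entry named *Adora3*, the *Tmigd3* model (ENSMUSG00000074344), had 39, 17, 73 and 59 counts in all over the non-amyloid WT, non-amyloid Hom, amyloid WT and amyloid Hom mice. It was called higher with amyloid in Hom mice (log2 fold change 1.90 ± 0.57, adjusted p = 0.0312) and was not called in WT mice (0.77 ± 0.51, adjusted p = 0.418). It shares 779 exonic bases with *Adora3*, and at these counts a small share of reads assigned to the other model would change it.

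Levels of different genes can be set side by side per kilobase of gene model. In non-amyloid WT mice the order of the mean levels was *P2ry6* (0.648 ± 0.114 CPM per kb, SD, n = 10), *Ptafr* (0.420 ± 0.0795), *Adora3* (0.378 ± 0.0677), *Gpr84* (0.248 ± 0.0584), *Cysltr1* (0.209 ± 0.0642), *Fpr2* (0.135 ± 0.0829), *Hcar2* (0.0766 ± 0.0745) and *Fpr1* (0.0139 ± 0.0153). *Ptafr* and *Adora3* differed by less than either SD there, as did *Gpr84* and *Cysltr1*, and *Fpr2* and *Hcar2*. In amyloid WT mice *Hcar2* came first at 1.80 ± 1.15 CPM per kb, with *P2ry6* (1.64 ± 0.591) and *Gpr84* (1.60 ± 0.529) within its SD. *Ptafr* (0.922 ± 0.278) and *Adora3* (0.921 ± 0.265) followed level with each other, and *Cysltr1* (0.345 ± 0.0774), *Fpr2* (0.101 ± 0.0553) and *Fpr1* (0.0277 ± 0.0379) came last. In amyloid Hom mice *P2ry6* was first (1.01 ± 0.169) and *Hcar2* was rank 4 (0.618 ± 0.267).

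Within the amyloid cohort the fitted level was lower in Hom than in WT mice for all 7 receptors tested, and none passed the test at an adjusted p of 0.05. A log2 fold change below 0 was found for 49.6% of all genes. Of the 7 receptors 0 were called, as were 0.0753% of all genes (16 of 21253). At an unadjusted p under 0.05, 4 of the 7 were lower, as were 5.77% of all genes. These 4 were *Hcar2*, *Gpr84*, *P2ry6* and *Adora3*, and their call rested on the model. With sex as a covariate *Hcar2*, *Gpr84* and *P2ry6* were called (3 of 7, and 1.18% of all genes), in DESeq2 all 4 (and 1.43% of all genes), and in 1 fit of all 40 libraries all 4 (and 2.88% of all genes). The p-values measure the spread between these separate mice. The 12 microglial markers moved the same way, each with a fitted value below 0, a median of -0.69 and 0 of 12 called, and their part in the receptors' difference is described further on by shares and not tested.

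*Hcar2* ranged from 1.56 to 8.63 CPM in amyloid WT mice and from 0.575 to 1.98 CPM in amyloid Hom mice, and the 7 lowest Hom mice fell short of the lowest WT mouse. The means were 3.51 ± 2.25 and 1.20 ± 0.520 CPM (SD, n = 10), and the log2 fold change was -1.55 ± 0.32 (SE, 0.343-fold, p = 6.7e-05, adjusted p = 0.0554). Across the alternatives its adjusted p ran from 3.1e-04 in DESeq2 to 0.114, and it was 0.00205 with sex as a covariate. *Gpr84* averaged 2.48 ± 0.820 CPM in WT and 1.27 ± 0.50 CPM in Hom mice, and 8 of the 10 Hom values were under the WT range. The log2 fold change was -0.97 ± 0.22 (0.511-fold, adjusted p = 0.0633, and 0.00493 with sex as a covariate).

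*P2ry6* averaged 3.17 ± 1.15 CPM in amyloid WT and 1.95 ± 0.327 CPM in amyloid Hom mice. Its lowest mouse was a WT mouse at 1.52 CPM, so that the Hom range lay within the WT range, and the log2 fold change was -0.70 ± 0.18 (adjusted p = 0.0799, and 0.0296 with sex as a covariate). *Adora3* averaged 2.32 ± 0.668 CPM in WT and 1.51 ± 0.391 CPM in Hom mice, with 4 of the 10 Hom values under the WT range. A log2 fold change of -0.62 ± 0.18 was fitted (adjusted p = 0.119, and 0.0720 with sex as a covariate). For the lipid mediator receptors the groups overlapped more. *Ptafr* averaged 3.35 ± 1.01 and 2.66 ± 0.665 CPM, with a log2 fold change of -0.34 ± 0.16 (adjusted p = 0.520). *Cysltr1* averaged 1.77 ± 0.398 and 1.64 ± 0.369 CPM, with a log2 fold change of -0.12 ± 0.14 (adjusted p = 0.771, approximate 95% interval from -0.40 to 0.16).

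*Fpr2* had a log2 fold change of -0.47 ± 0.29 (adjusted p = 0.604) between amyloid Hom and WT mice, which became -0.22 ± 0.25 without amyloid WT replicate 5, the library with 29 counts. *Fpr1* averaged 0.0571 ± 0.162 CPM in amyloid Hom and 0.0367 ± 0.0502 CPM in amyloid WT mice (2-sided permutation test, unadjusted p = 0.964). Without replicate 19 the Hom mean was 0.00611 CPM and the difference turned to -0.0306 CPM (p = 0.0761). The *Tmigd3* entry had a log2 fold change of -0.07 ± 0.41 (adjusted p = 0.958).

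**Figure D2:**
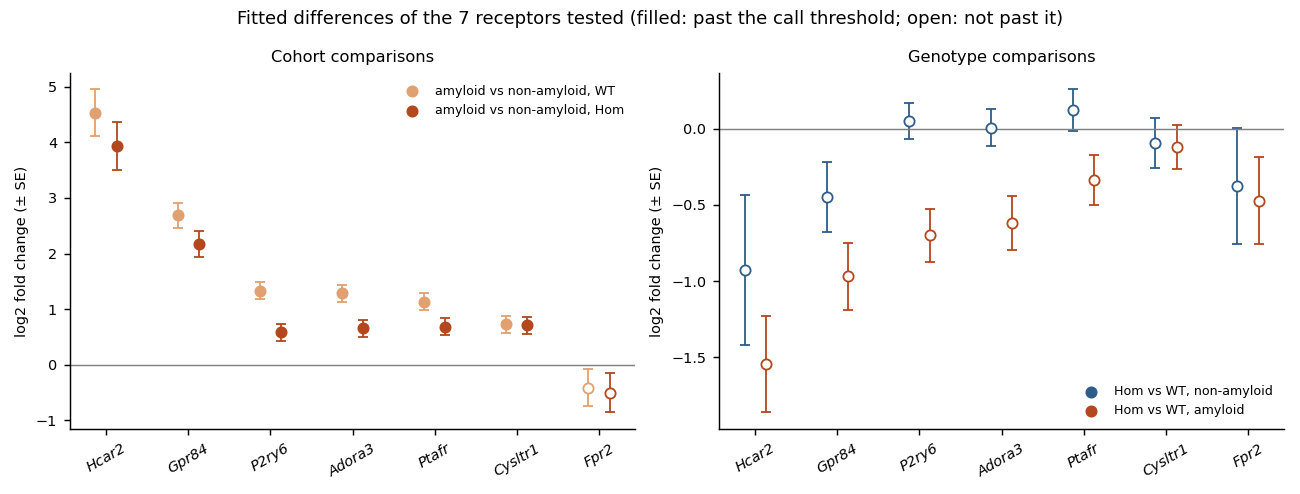
Log2 fold changes with SE (y axis) of the 7 receptors tested, cohort comparisons on the left and genotype comparisons on the right, filled where the call threshold was passed. On the left 6 receptors are filled in both genotypes, with *Hcar2* at 4.54 and 3.93, and on the right all points are open, with *Hcar2* at -1.55 in the amyloid cohort.

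In the non-amyloid cohort none of the 7 receptors was called, as was the case for all but 0.0329% of genes, and 0 of the 7 had an unadjusted p under 0.05, a level that 4.61% of all genes passed. *Hcar2* averaged 0.149 ± 0.145 CPM in WT and 0.0787 ± 0.0457 CPM in Hom mice (log2 fold change -0.93 ± 0.49, p = 0.0736, adjusted p = 0.965). *Gpr84* averaged 0.384 ± 0.0905 and 0.279 ± 0.108 CPM, with 6 Hom values under the WT range (log2 fold change -0.45 ± 0.23, p = 0.0644, adjusted p = 0.965). *P2ry6* (0.05 ± 0.12), *Adora3* (0.01 ± 0.12), *Ptafr* (0.12 ± 0.14) and *Cysltr1* (-0.10 ± 0.16) were close to 0 on the log2 scale. The approximate 95% interval of the *P2ry6* value ran from -0.18 to 0.28.

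Whether the genotype difference itself differed between the cohorts was tested as an interaction over the 40 libraries. 0 of the 7 receptors were called, and 0% of all genes were. At an unadjusted p under 0.05 there were 3 of the 7, and 10.3% of all genes, by edgeR. These were *P2ry6* (interaction on the log2 scale -0.75 ± 0.21, p = 0.000998, adjusted p = 0.150), *Adora3* (-0.62 ± 0.21, p = 0.00584, adjusted p = 0.288) and *Ptafr* (-0.45 ± 0.22, p = 0.0424, adjusted p = 0.476). For *Hcar2* the interaction was -0.61 ± 0.61 with an approximate 95% interval from -1.79 to 0.58, and for *Gpr84* it was -0.52 ± 0.32 (-1.14 to 0.10), so that a difference of either size remains within the error. The values of *Cysltr1* (-0.02 ± 0.22) and *Fpr2* (-0.09 ± 0.48) were near 0. The cohort and genotype comparisons share libraries, as amyloid WT mice enter both, and are given side by side for that reason.

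The sexes were compared within the amyloid cohort, over both genotypes. *Hcar2* was called higher in females than in males, which was 1 of the 7 receptors and 0.24% of all genes. At an unadjusted p under 0.05, 6 of the 7 were higher in females, as were 6% of all genes, and the exception was *Fpr2* (log2 fold change 0.15 ± 0.29). *Hcar2* ranged from 2.48 to 8.63 CPM in amyloid WT females and from 1.56 to 3.22 CPM in WT males. In amyloid Hom mice it ranged from 1.1 to 1.98 CPM in females and from 0.575 to 1.09 CPM in males. The log2 fold change of females over males was 1.12 ± 0.21 (2.18-fold, adjusted p = 0.0210).

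*Gpr84* averaged 2.96 ± 0.873 CPM in amyloid WT females and 2.0 ± 0.422 CPM in WT males (SD, n = 5), and 1.63 ± 0.416 and 0.904 ± 0.246 CPM in Hom females and males. Its log2 fold change of females over males was 0.70 ± 0.16 (adjusted p = 0.0703). The values were 0.44 ± 0.14 for *Ptafr* (adjusted p = 0.246), 0.43 ± 0.15 for *P2ry6* (adjusted p = 0.347), 0.41 ± 0.16 for *Adora3* (adjusted p = 0.447) and 0.36 ± 0.13 for *Cysltr1* (adjusted p = 0.363). The microglial markers were higher in females as well, with 12 of 12 fitted values above 0, a median of 0.48 and 2 called. The genotype difference did not pass a test of its dependence on sex, with 0 of 7 receptors and 0% of all genes called. An unadjusted p under 0.05 was found for 0 of the 7 and for 5.29% of all genes. For *Hcar2* this interaction was -0.18 ± 0.42 (approximate 95% interval from -1.0 to 0.65) and for *P2ry6* it was -0.46 ± 0.29 (-1.03 to 0.12).

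**Figure D3:**
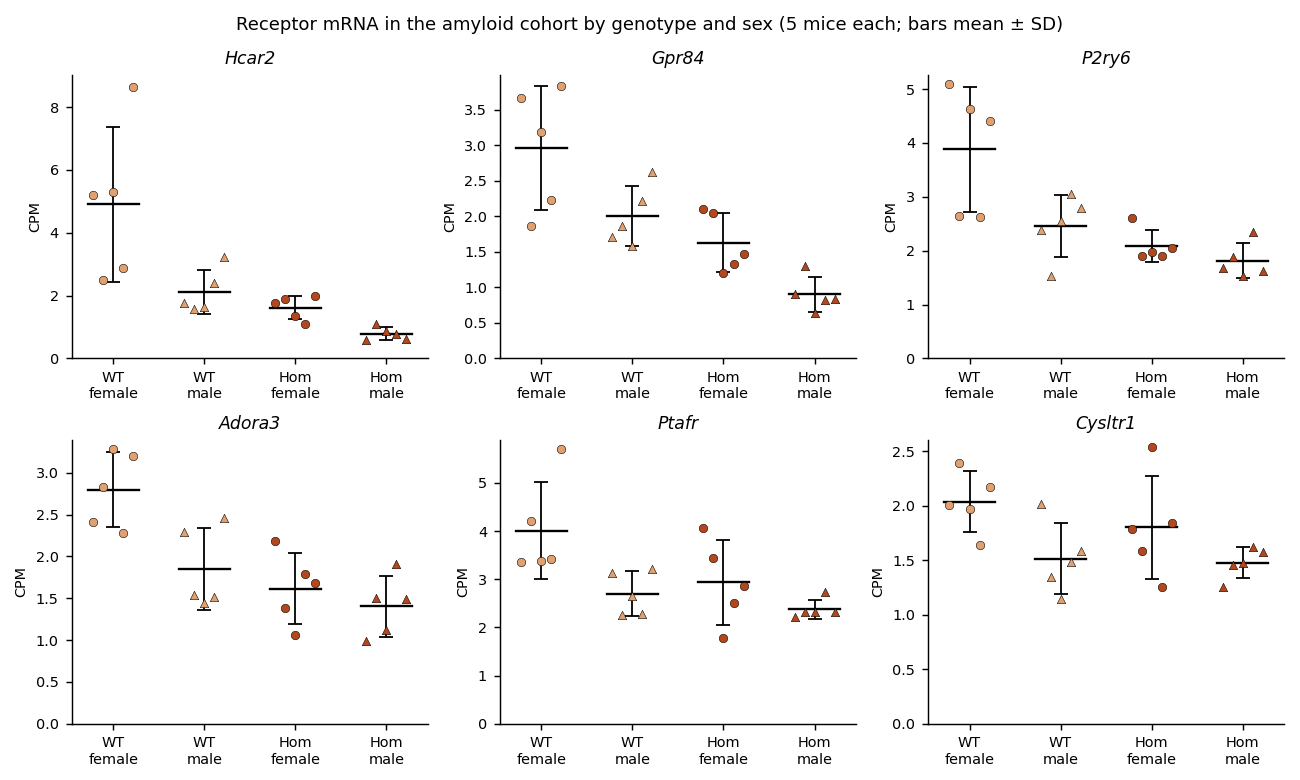
CPM of 6 receptors (y axis, from 0) in the amyloid cohort by genotype and sex (x axis), 5 mice each, with bars for the mean ± SD. *Hcar2* spans 1.1 to 1.98 CPM in Hom females and 0.575 to 1.09 CPM in Hom males. It spans 2.48 to 8.63 CPM in WT females and 1.56 to 3.22 CPM in WT males.

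To describe the receptors beside the amount of microglial mRNA, each was expressed as a percentage of the summed CPM of the 12 microglial markers in the same library. The marker sum had a median of 466.4 CPM in non-amyloid WT, 443 in non-amyloid Hom, 1386 in amyloid WT and 910 in amyloid Hom mice. These shares are a description with no test, since the markers themselves moved between the groups. *Hcar2* was 0.0343 ± 0.0358% of the marker sum in non-amyloid WT and 0.221 ± 0.0749% in amyloid WT mice, a ratio of 6.46, and the mice did not overlap. *Gpr84* was 0.0855 ± 0.0258% and 0.168 ± 0.0249%, a ratio of 1.97. The other receptors were a smaller share of the marker sum with amyloid, with ratios of 0.776 for *P2ry6*, 0.763 for *Adora3*, 0.681 for *Ptafr* and 0.531 for *Cysltr1* in WT mice. These 4 depend on the markers chosen. With *Csf1r* and *Aif1* alone as the denominator, a choice made after seeing the data, the ratios were 9.79 for *Hcar2* and 2.92 for *Gpr84*, and those of *P2ry6* (1.15), *Adora3* (1.12) and *Ptafr* (1.01) turned to above 1 while *Cysltr1* stayed below it (0.767).

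The shares were also compared between genotypes. *Hcar2* was 0.126 ± 0.0319% in Hom mice, 0.569 of the WT share, and 7 Hom values were under the WT range. *Gpr84* was 0.135 ± 0.0323%, 0.801 of the WT share. *P2ry6* (0.216 ± 0.0296% in Hom and 0.213 ± 0.0348% in WT mice) and *Adora3* (0.166 ± 0.0390% and 0.159 ± 0.0255%) differed by less than the SD of either group. *Ptafr* was a larger share in Hom mice (0.291 ± 0.0472% and 0.231 ± 0.0419%), with 7 of 10 Hom values over the WT range, and so was *Cysltr1* (0.183 ± 0.0463% and 0.124 ± 0.0262%), with 5 of 10. With *Csf1r* and *Aif1* alone as the denominator the Hom to WT ratio was 0.501 for *Hcar2* and 0.712 for *Gpr84*, with 6 Hom values of each under the WT range. It was then 0.882 for *P2ry6* and 0.902 for *Adora3*, and it was 1.09 for *Ptafr* and 1.29 for *Cysltr1*, with 2 Hom values of each over the WT range. Without amyloid the Hom to WT ratio over the 12 markers was 0.519 for *Hcar2* and 0.723 for *Gpr84*, where the SD of *Hcar2* in WT mice was as large as its mean (0.0343 ± 0.0358%).

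**Figure D4:**
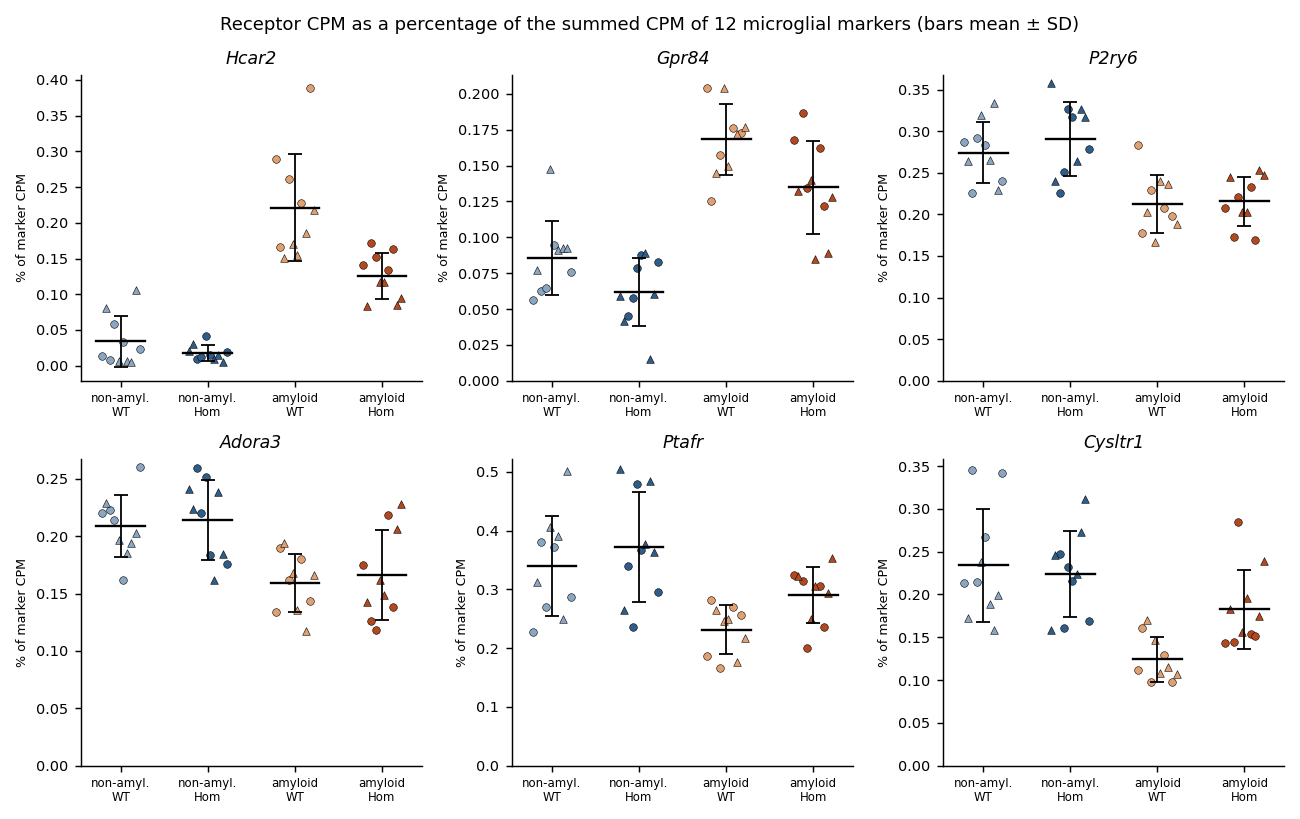
CPM of 6 receptors as a percentage of the summed CPM of 12 microglial markers (y axis) in each mouse by group (x axis), with bars for the mean ± SD of 10 mice. *Hcar2* averages 0.221% in amyloid WT and 0.126% in amyloid Hom mice, while *Ptafr* and *Cysltr1* sit higher in amyloid Hom than in amyloid WT mice.

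How far the receptors varied together from mouse to mouse was described by correlations over the 20 amyloid libraries, on log2 CPM less the mean of each group. The points share their microglial content, depth and sex, so they are given as a description with no p. Over the 21 pairs of receptors Pearson's r ran from 0.14 (*Hcar2* with *Fpr2*) to 0.87 (*Hcar2* with *Gpr84*), with a median of 0.53. Less the mean of each group and sex, a choice made after seeing the data, the median was 0.36 and *Hcar2* with *Gpr84* was 0.76. Over the 20 non-amyloid libraries r ran from -0.44 to 0.26 with a median of -0.07. Over all 40 libraries the median was 0.24, and *Hcar2* with *Gpr84* was 0.28. With the microglial marker sum in the amyloid libraries, r was 0.94 for *Hcar2*, 0.85 for *P2ry6*, 0.82 for *Gpr84*, 0.74 for *Ptafr*, 0.73 for *Adora3*, 0.59 for *Cysltr1* and 0.27 for *Fpr2*. With sex removed as well these were 0.88, 0.78, 0.71, 0.57, 0.59, 0.31 and 0.29 in the same order.

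**Figure D5:**
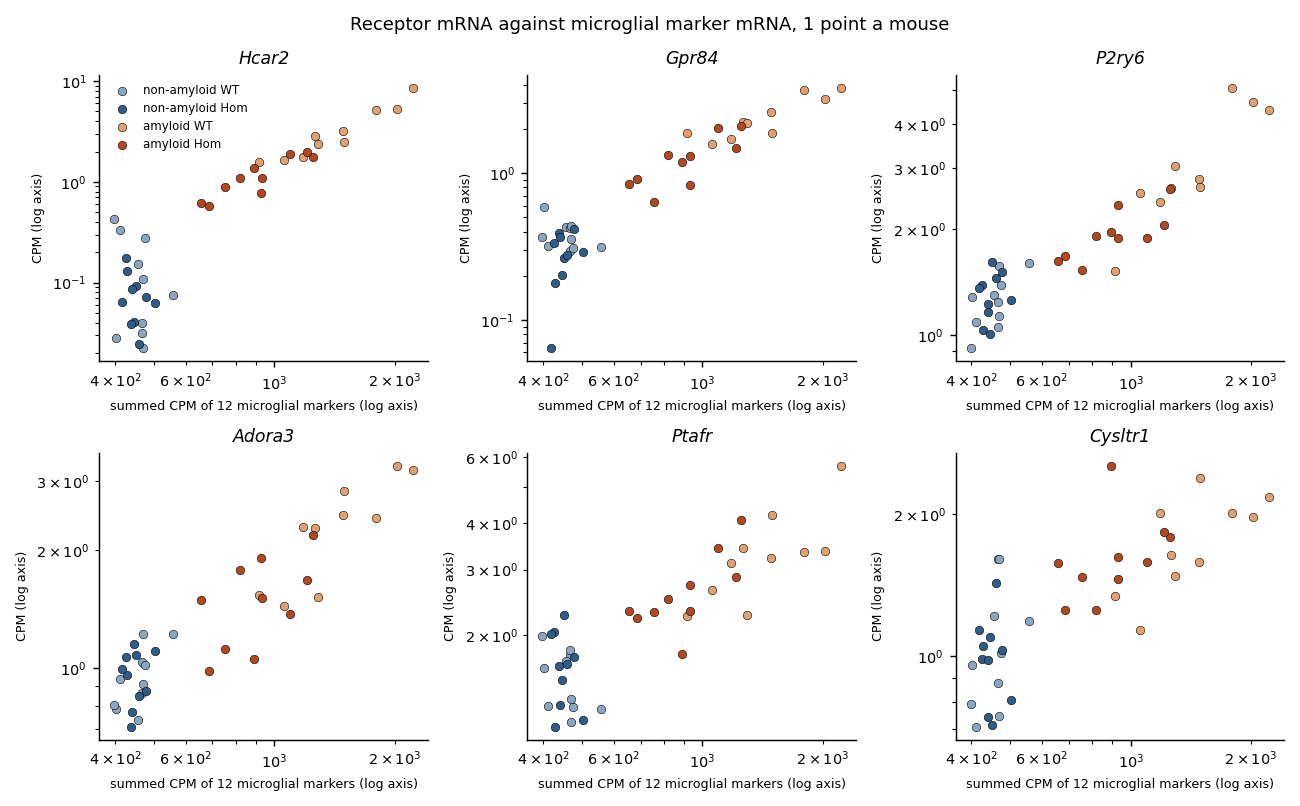
CPM of 6 receptors against the summed CPM of 12 microglial markers (both log axes), 1 point for each of the 40 mice, coloured by group. *Hcar2* follows the marker sum closely in the amyloid mice (r = 0.94 less the group means) and scatters in the non-amyloid mice, where it is near the limit of detection.

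The genes most like each receptor were sought in the same way among 15198 genes with a mean of at least 1 CPM. For *Hcar2* these included *Arhgap30*, a GTPase-activating protein (Pearson's r = 0.98, Spearman's coefficient 0.97), and *Cd68*, a lysosomal protein of phagocytes (r = 0.94, Spearman 0.94). For *Gpr84* they were *Cd68* (r = 0.88, Spearman 0.91), *Hcar2* itself (r = 0.87, Spearman 0.86) and *Arhgap30* (r = 0.87, Spearman 0.89). For *P2ry6* they were *Themis2* (r = 0.93, Spearman 0.80), the hexokinase *Hk2* (r = 0.91, Spearman 0.89) and *Lag3* (r = 0.90, Spearman 0.86). Leaving out amyloid Hom replicate 19 moved none of these 8 values of r by more than 0.02. Removing sex as well left *Hcar2* with *Arhgap30* at 0.96 and took *Gpr84* with *Arhgap30* to 0.72, and over all 40 libraries these were 0.64 and 0.64.

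For *Ptafr* the closest genes were *Cd86*, a costimulatory ligand (r = 0.90, Spearman 0.89), *Creg1* (r = 0.89, Spearman 0.84) and *Nckap1l* (r = 0.89, Spearman 0.92). For *Adora3* they were *Slc29a3*, a nucleoside transporter of lysosomes (r = 0.88, Spearman 0.89), *Capn3* (r = 0.86, Spearman 0.82) and *Rslcan18* (r = 0.85, Spearman 0.83, and r = 0.91 without replicate 19). *Cysltr1* was closest to *Sp140* (r = 0.83, Spearman 0.88), *Uqcrh* (r = 0.82, Spearman 0.86) and *Pbdc1* (r = 0.81, Spearman 0.83), and these fell to 0.76, 0.79 and 0.74 without replicate 19. *Fpr2* was closest to *Pgrmc2* (r = 0.81, Spearman 0.81), *Sin3a* (r = 0.79, Spearman 0.79) and *Kdm5b* (r = 0.78, Spearman 0.81), on at most 29 counts per library. Over all 40 libraries r was lower for each of these 12 genes, from 0.37 (*Pgrmc2*) to 0.72 (*Capn3*).

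Of 45 other G protein-coupled receptors listed for comparison, not all of them known from microglia, 37 passed the filter. In WT mice 21 of these rose with amyloid and 0 fell, with a median log2 fold change of 0.49 beside 0.00 for all genes, of which 6.62% were called higher. In Hom mice 13 rose and 0 fell, with a median of 0.29 beside 0.03 for all genes, of which 5.71% were called higher. *Gpr65*, a proton sensor, rose by a log2 fold change of 3.24 (adjusted p = 1.5e-12), *C3ar1*, the C3a receptor, by 2.44 (adjusted p = 3.0e-14) and *Cnr2*, the cannabinoid receptor of immune cells, by 2.30 (adjusted p = 5.0e-11). The fractalkine receptor *Cx3cr1* rose by 1.19 and the ADP receptor *P2ry13* by 0.80. *C5ar1* (1.89), *Gpr183* (1.64), *Cmklr1* (1.42), *Gpr34* (1.21) and *Adgre1* (1.1) were also among the 10 with the lowest adjusted p, on the same scale. Of these 10, *C3ar1* and *Gpr34* were called higher in females than in males of the amyloid cohort too, where 0.24% of all genes were called.

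Between amyloid Hom and WT mice 0 of the 37 were called, 32 had a fitted value below 0 and 15 had an unadjusted p under 0.05, with a median of -0.31 beside 0.00 for all genes. Of all genes 0.0753% were called, 49.6% had a fitted value below 0 and 9.67% an unadjusted p under 0.05. The lowest p were those of *Cnr2* (-0.98 ± 0.21, adjusted p = 0.0554), *Lpar5* (-0.83 ± 0.20, adjusted p = 0.0787) and *Cmklr1* (-0.65 ± 0.17, adjusted p = 0.0873). With sex as a covariate 8 of the 37 were called, all lower in Hom mice, and 1.18% of all genes were called. Of the formyl peptide family, *Fpr3* reached at most 5 counts in any library and *Fpr-rs3*, *Fpr-rs4*, *Fpr-rs6* and *Fpr-rs7* had 0 counts in all 40 libraries.

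Downstream, the list for G protein signalling held 35 symbols for 33 genes, as some were older names of others, and all 33 were tested. In WT mice 10 rose with amyloid and 0 fell (6.62% of all genes were called higher), and in Hom mice 5 rose and 0 fell (5.71% of all genes). The median of the 33 was 0.04 in WT and 0.03 in Hom mice, beside 0.00 and 0.03 for all genes. *Rgs1*, which shuts off Gi and Gq signals, rose from 0.167 to 1.43 CPM in WT mice (log2 fold change 3.07, adjusted p = 1.0e-10), and *Gna15*, a Gq-class alpha subunit of blood cells, from 0.957 to 2.0 CPM (1.06, adjusted p = 3.3e-06). *Pik3cg*, the phosphoinositide 3-kinase catalytic subunit driven by Gi-coupled receptors, rose by 1.17, and its regulatory partners *Pik3r5* by 0.61 and *Pik3r6* by 0.70, the last with 6.74 ± 4.46 CPM in amyloid WT mice. *Plcb2* (0.61), *Rgs10* (0.47), *Gng5* (0.41), *Rgs19* (0.31) and *Gng12* (0.25) rose as well.

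Between amyloid Hom and WT mice 0 of these 33 genes were called, beside 0.0753% of all genes. *Gna15* (-0.66 ± 0.19, adjusted p = 0.123), *Pik3cg* (-0.44 ± 0.13, adjusted p = 0.139) and *Gng5* (-0.23 ± 0.07, adjusted p = 0.161) had the lowest p. Of the 33, only *Pik3cg* was called with sex as a covariate (adjusted p = 0.0112), where 1.18% of all genes were called. It was also called higher in females of the amyloid cohort (0.47, adjusted p = 0.0210), where 0.24% of all genes were called.

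Of 28 genes that make, release or remove the ligands, 25 were tested. In WT mice 8 rose with amyloid and 0 fell, with a median log2 fold change of 0.13 (6.62% of all genes were called higher), and in Hom mice 3 rose and 0 fell, with a median of 0.12 (5.71% of all genes), beside medians of 0.00 and 0.03 for all genes. Among the 8 were *Alox5*, the 5-lipoxygenase, at a log2 fold change of 1.51 (adjusted p = 1.1e-06), *Ltc4s*, the leukotriene C4 synthase, at 0.74, *Alox5ap*, the 5-lipoxygenase activating protein, at 0.63 and *Ggt5* at 0.47. *Lpcat2*, which makes platelet-activating factor, rose by 0.78 (adjusted p = 1.3e-08), *Pla2g4a*, the phospholipase that frees arachidonate, by 0.53 and the hydrolase *Pafah2* by 0.26. *Entpd1*, the ectoenzyme that breaks ATP and UDP down, rose by 0.72 (adjusted p = 4.5e-10). The ketone body gene *Bdh1* (-0.08, adjusted p = 0.546) did not pass the test.

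Between amyloid Hom and WT mice 0 of the 25 were called, beside 0.0753% of all genes. The lowest p were those of *Alox5* (-0.89 ± 0.19, adjusted p = 0.0554), *Entpd1* (-0.39 ± 0.09, adjusted p = 0.0633) and *Alox5ap* (-0.52 ± 0.12, adjusted p = 0.0763). These 3 were called lower in Hom mice with sex as a covariate, at adjusted p of 0.0256, 0.0119 and 0.0433. In that fit 1.18% of all genes were called.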

How the data were processed

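Cortical poly-A RNA of 40 mice was sequenced in paired ends. The authors aligned reads to mm10 and counted them per gene with featureCounts, and the deposited values are raw counts, unnormalized whole numbers for 43346 genes. The paper names MAP-RSeq with TopHat and Bowtie, whereas the submitters' processing notes name STAR 2.5.2b and featureCounts 1.5.1, and annotation and strand setting are not given in the sources used here. The deposited table also holds the length of each gene model, used here for levels per kb. Groups, sexes and replicate numbers (1 to 40) were taken from the labels, and ages from the paper. The paper left out 1 amyloid Hom female for a low gene count percentage and its strand-ness check, without naming it. Amyloid Hom replicate 19 is a female with the lowest total and the highest share of counts on opposite-strand genes. Whether it is the library left out is not stated. All 10 were kept here, so the main comparisons include replicate 19, and fits without it are among the alternatives.

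The 21253 genes that reached 10 counts in 4 or more libraries were tested in R 4.3.3 with edgeR 4.0.16, using TMM and the quasi-likelihood test with Benjamini-Hochberg adjustment, as the paper's methods do. A call needed an adjusted p below 0.05 together with a log2 change of more than 0.25 in size. Genotypes were compared within a cohort (20 libraries), cohorts and the genotype by cohort interaction in 1 fit of 40 libraries with 4 groups, and sexes in the amyloid cohort with genotype in the model. SE is the absolute log2 fold change divided by the square root of the F statistic. *Fpr1*, under the filter, was compared by a 2-sided permutation test in SciPy 1.17.1. DESeq2 1.42.0, upper-quartile normalization, no filter, sex as a covariate, 1 fit of all libraries and each library left out served as alternatives. Overlaps were read from GENCODE vM21 and promoters from RefSeq on GRCm38.p6.

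At these depths 10 counts correspond to a level with a large counting error, so *Fpr1*, *Fpr2* and the non-amyloid *Hcar2* values are imprecise. The 180 pairs of libraries within groups differed by 15.9 times the counting noise or more (chi-square per degree of freedom), so none was a repeat of another. The members, gene lists and alternatives were chosen with earlier results of these data known. The genes named are all members, those of each list called in any comparison (up to 10 by adjusted p) with its 3 lowest p between amyloid Hom and WT mice, up to 3 genes most like each member, *Trem2* and overlapping genes. *Bdh1*, *Csf1r*, *Aif1* and the *Fpr3* and *Fpr-rs* genes were named after their values were seen. A few results that this rule names are not reported here. The test was tried on simulated counts with known changes.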

Additional observations from a re-analysis of the deposited data

Results flagged for a closer look

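In 5 of 36 sets of 10 mice (8 receptors and the *Tmigd3* entry in 4 groups), 1 mouse lay farther from the rest than Dixon's 95% limit allows. Chance gives this for about 1 set in 20 only where values are normally distributed. That was not tested for these low counts, so 5 of 36 is no measure of an excess. In all 5 the mouse was the highest of its set. *Hcar2* was 8.63 CPM (635 counts) in amyloid WT replicate 32, with the next WT mouse at 5.30. *Gpr84* was 0.591 CPM (42 counts) in non-amyloid WT replicate 18, with the next at 0.434. *Fpr2* was 0.313 CPM (29 counts) in amyloid WT replicate 5, with the next at 0.168.

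The other 2 were in amyloid Hom replicate 19, the library with the lowest total and the raised share of counts on opposite-strand genes. There *Fpr1* was 0.516 CPM (22 counts, the next at 0.0289) and *Cysltr1* was 2.53 CPM (108 counts, the next at 1.84). Without it the log2 fold change of *Cysltr1* between amyloid Hom and WT mice was -0.20 ± 0.13 in place of -0.12 ± 0.14, and the cause was not tested.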

How the results depend on the processing

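The 6 receptors called higher with amyloid were 6 under every alternative run in WT mice, each of the 20 WT libraries left out included, and under every one run in Hom mice, of whose libraries replicate 19 was the one left out, and 0 were called between Hom and WT mice without amyloid or in either interaction. Between amyloid Hom and WT mice the count of receptors called was 0, and it was 4 in 1 fit of all 40 libraries, 4 in DESeq2 and 3 with sex as a covariate, and from 0 to 3 with 1 library left out, the 3 without amyloid WT replicate 13. *Hcar2* was called without each of amyloid WT replicates 9, 13 and 22 and amyloid Hom replicates 3 and 34, and *Gpr84* without WT replicates 13 and 22 and Hom replicate 3. All 7 values stayed below 0 throughout. The number of genes called there was 16, and 612, 303 and 251 under the first 3 alternatives, 8 with no filter and 6 to 204 with 1 library left out. Without amyloid, 7 genes passed between genotypes, 11 in DESeq2 and 4 to 8 with 1 library left out. Between sexes 51 were called, 257 in DESeq2 (with 2 receptors in place of 1, *Gpr84* the second), 26 with no filter and 89 without replicate 19. For the genotype by cohort interaction 0 were called, and 38 in DESeq2 and 12 with sex as a covariate.

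The non-amyloid value of *Adora3*, near 0, turned to -0.00129 in DESeq2 and -0.00300 with upper-quartile normalization and ran from -0.030 to 0.053 with 1 library left out. Without replicate 19 the *Fpr1* difference turned to -0.0306 CPM between amyloid Hom and WT mice and to -0.0175 CPM between the Hom groups, a choice made after seeing the data. With *Csf1r* and *Aif1* alone as the denominator, also chosen after seeing the data, the amyloid to non-amyloid ratio of shares turned to 1.15 in WT and 1.02 in Hom mice for *P2ry6*, 1.12 and 1.06 for *Adora3*, 1.01 and 1.08 for *Ptafr*, and to 1.12 in Hom mice for *Cysltr1*. Why the calls depend on the model was not tested. No paired analysis was made, because the labels name no litter and every library has a replicate number of its own. The paper describes the genotypes as littermates, and litter could not be taken into account. Depth limits *Fpr1* and *Fpr2*, and the size of difference that could be detected for them was not worked out.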
